A study of Mus musculus with 21 samples.

Results

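The 28 genes of cholesterol synthesis and its control by SREBP2 were followed in 3T3-L1 adipocytes through 6 days of treatment with a glucocorticoid or an inflammatory cytokine. Members were taken by gene symbol from the array's annotation, and each gene was read from the single-gene probe set with the highest mean over 21 arrays. Of 18194 genes with such a probe set, 27 were members, and all 27 were bright enough to be tested among 12156 genes. Acat2, the cytosolic thiolase that opens the pathway, had no probe set of its own in that annotation and is not analysed here. The series asks how transcripts of these cells shift early, midway and late as insulin resistance develops.

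3T3-L1 is a clonal mouse line whose preadipocytes turn into fat-laden cells in culture, here over 14 days. One group was the untreated control, at 0 h of treatment, and the other 6 groups were treated for 2 h, 24 h or 6 d with either dexamethasone (Dex, a synthetic glucocorticoid, at 20 nM) or the inflammatory cytokine TNF. Each of the 7 groups held 3 arrays of Affymetrix mouse probe sets, labelled as biological replicates of the line. The labels give neither the TNF dose, nor a vehicle for the control, nor whether every group was harvested at the same age of culture. In a bulk sample, fewer cells that express a gene and less RNA per cell cannot be told apart.

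Cells build cholesterol from acetyl-CoA through mevalonate, the isoprenoid diphosphates, squalene and lanosterol. When the endoplasmic reticulum holds little sterol, SCAP carries SREBP2 to the Golgi, where the site-1 and site-2 proteases (Mbtps1 and Mbtps2) free its transcription factor domain, which raises the genes of the pathway. When sterol is plentiful, INSIG proteins hold SCAP back and the pathway genes are transcribed less. Fat cells keep a large store of unesterified cholesterol in the membranes around their lipid droplets.

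Values are log2 expression, a change is the difference of group means ± its standard error (SE), and a gene rose or fell when its limma p, adjusted over all 12156 genes, was below 0.05. The SE pools the spread of all 7 groups. One array, TNF 6 d replicate 2, stood apart: its correlation with the other 2 arrays of its group was 0.842 and 0.844, against at least 0.978 for pairs within the other groups, and its 3' minus 5' signal of Actb and Gapdh was 2.00, against 0.0210 to 0.777 elsewhere. Such a difference rises when RNA is degraded. The mean of the 27 members was 9.38 on it and 10.43 and 10.46 on the other 2 arrays of TNF 6 d. The fit pools its spread with that of the other groups, so the counts of members, and those of other lists, are given with and without it. The treatments left their known marks: Fkbp5, a glucocorticoid target, was higher by 3.74, 4.07 and 4.02 at 2 h, 24 h and 6 d of Dex, and Ccl2, an inflammatory chemokine, by 6.44, 6.77 and 4.33 with TNF. The 6 of 8 adipocyte markers that were measured averaged 13.54 to 13.57 on the control arrays. Of 6 macrophage markers only Cd14 and Csf1r lay above the 5.34 level threshold in the controls, and Adgre1, Ptprc and Itgam lay below it in all 7 groups.

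After 6 d of Dex most of the pathway was lower than in the control. Of the 27 members, 18 fell and 0 rose, with a median change of -1.45 where the median of all genes was -0.02. Of all genes tested in this comparison, 3.22% rose and 5.08% fell, and without TNF 6 d replicate 2 these shares were 10.4% and 13.5%. Without that array 22 members fell and 2 rose. The falls covered 5 of 5 enzymes that make isopentenyl diphosphate, 3 of 3 that make squalene and lanosterol, and 6 of the 8 that turn lanosterol into cholesterol. They covered 1 of the 6 genes for SREBP2 and its regulators.

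**Figure D1:**
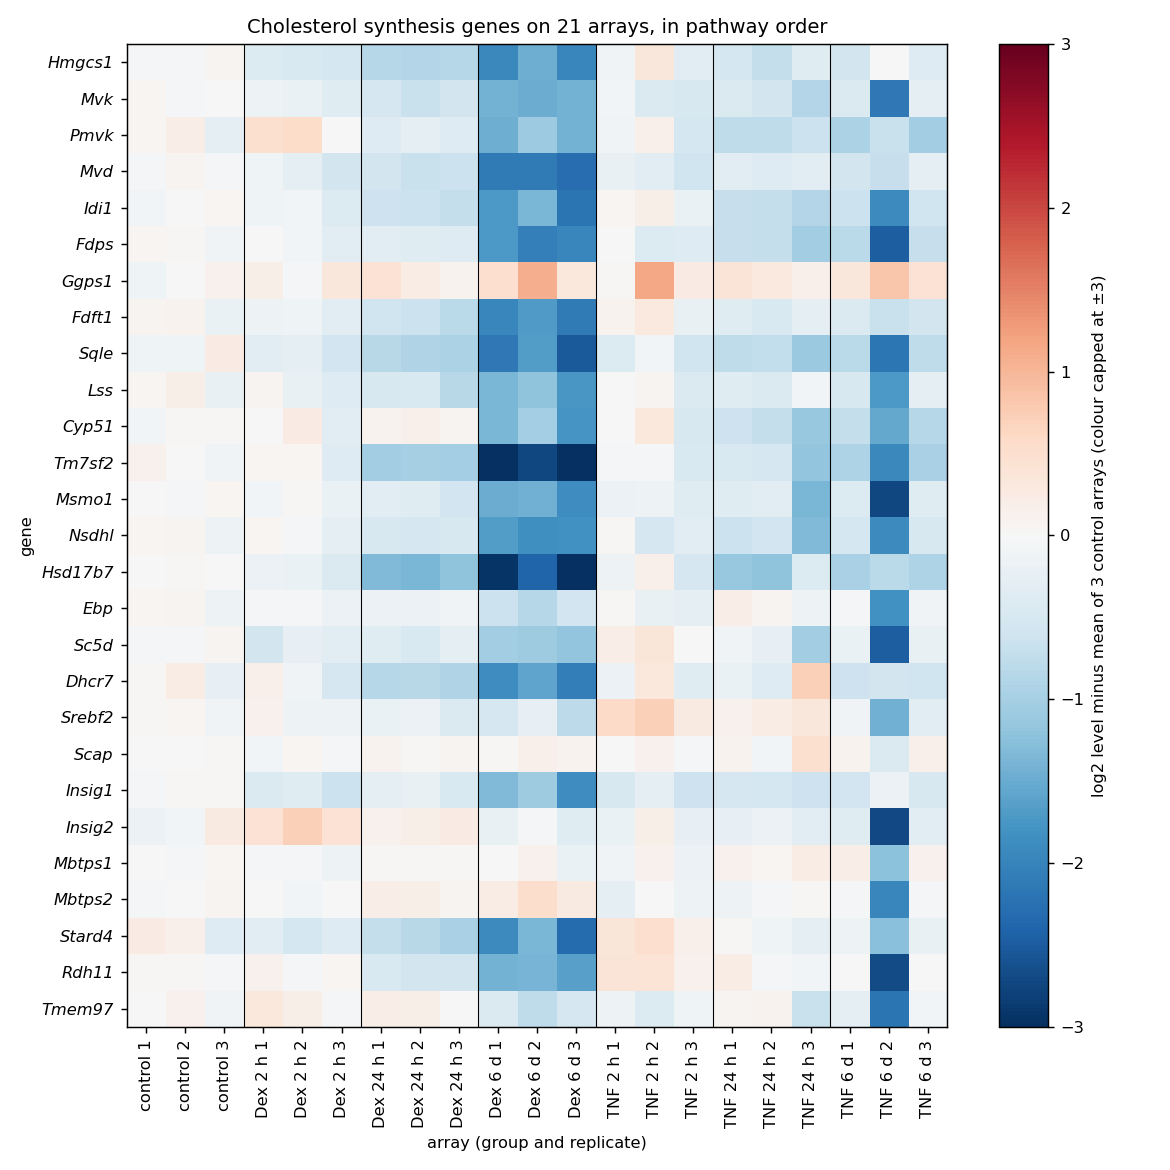
Colour shows the log2 level of each of the 27 genes (rows, in pathway order) minus the mean of the 3 control arrays, for all 21 arrays (columns). The 3 arrays of Dex at 6 d are blue for nearly every enzyme, while Scap and Mbtps1 stay near white there; TNF 6 d replicate 2 differs from the other 2 arrays of its group.

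The 2 members with the largest changes both act on sterols after lanosterol. Tm7sf2, a sterol reductase that acts on the product of Cyp51, read 11.49, 11.35 and 11.26 on the control arrays, 11.43, 11.43 and 10.97 after 2 h, 10.32, 10.37 and 10.34 after 24 h and 8.15, 8.64 and 7.79 after 6 d of Dex. Under TNF, Tm7sf2 read 11.33, 11.34 and 10.90 at 2 h, 10.91, 10.86 and 10.18 at 24 h and 10.44, 9.43 and 10.38 at 6 d. Every Dex 6 d array lay below every array of the other 6 groups. The change at 6 d of Dex was -3.17 ± 0.27, a 9.02-fold lower level (limma adjusted p = 2.19e-07). Hsd17b7, the keto reductase that works with Msmo1 and Nsdhl to strip methyl groups from sterols, read 11.33, 11.37 and 11.34 on the control arrays, 11.16, 11.16 and 10.92 after 2 h, 10.03, 9.97 and 10.15 after 24 h and 8.41, 8.95 and 8.08 after 6 d of Dex. Under TNF, Hsd17b7 read 11.18, 11.50 and 10.84, then 10.22, 10.13 and 10.94, then 10.36, 10.55 and 10.43 at the same times. Its Dex 6 d arrays were again below all others. It fell by 2.86 ± 0.23 on the log2 scale (adjusted p = 1.03e-07), and 2 further Hsd17b7 probe sets changed by -2.18 and -2.26. A dim one, whose mean lay below the level threshold, changed by -0.25.

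Promoters of 5 members are shown here, chosen with the expression results and the motif matches known. Tm7sf2 and Hsd17b7 had the 2 largest changes, and Scap is a regulator that did not pass the test in any comparison. Hmgcs1 and Insig1 were picked because each held a match to a sterol motif, so those 2 matches were set by the choice. Each line gives the 150 bases before the annotated start, 5′ to 3′ on the gene's strand, from RefSeq on GRCm38.p6. Capitals mark matches on either strand to TCACNCCAC (a sterol regulatory element, the site SREBP binds), its shorter form CACNCCAC, which every match of the longer one contains, CCAAT (the NF-Y site, ATTGG on the other strand) and GGGCGG (the GC box of Sp1, CCGCCC on the other strand).
Tm7sf2, chr19:6067851-6068000, minus strand: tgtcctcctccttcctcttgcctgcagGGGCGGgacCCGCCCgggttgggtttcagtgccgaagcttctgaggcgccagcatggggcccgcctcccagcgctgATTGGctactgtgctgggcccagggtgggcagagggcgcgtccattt
Hsd17b7, chr1:169969206-169969355, minus strand: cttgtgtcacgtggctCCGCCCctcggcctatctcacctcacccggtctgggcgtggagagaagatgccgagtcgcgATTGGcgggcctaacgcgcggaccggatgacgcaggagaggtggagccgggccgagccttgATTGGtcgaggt
Hmgcs1, chr13:119690201-119690350, plus strand: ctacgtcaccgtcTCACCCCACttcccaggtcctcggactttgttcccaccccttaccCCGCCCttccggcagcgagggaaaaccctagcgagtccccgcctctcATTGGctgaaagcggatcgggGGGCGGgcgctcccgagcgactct
Insig1, chr5:28071262-28071411, plus strand: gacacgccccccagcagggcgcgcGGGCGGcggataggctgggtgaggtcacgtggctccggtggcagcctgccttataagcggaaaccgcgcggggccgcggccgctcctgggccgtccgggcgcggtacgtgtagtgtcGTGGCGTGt
Scap, chr9:110333138-110333287, plus strand: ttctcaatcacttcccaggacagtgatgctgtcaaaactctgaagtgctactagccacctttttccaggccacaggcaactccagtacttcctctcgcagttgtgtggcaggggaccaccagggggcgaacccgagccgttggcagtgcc
The Hmgcs1 stretch holds a full sterol element, the Insig1 stretch the short form on the other strand just before the start, and the Scap stretch none of the 4 motifs. This depends on the start: a second annotated Scap start, further downstream, has a GC box at position -30 from it. The same GC box lies at position 39 from the first start, beyond the stretch shown. Scap therefore counts among the members with GGGCGG in the wider windows below. The stretches of Tm7sf2 and Hsd17b7 hold CCAAT and GC boxes but neither sterol element.

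Over windows of 300 bases (250 before and 50 after the start), 24 of the 28 members had an entry, Acat2 among them, and Fdps, Fdft1, Sqle and Stard4 had none. CCAAT was in 20 of these 24 members (83.3%) and in 41.1% of 27025 genes with a window. GGGCGG was likewise in 20 of 24 members, against 38.2% of genes. The short sterol element was in 3 members, Acat2, Hmgcs1 and Insig1 (12.5%), against 7.12% of genes, and the full element was in Hmgcs1 alone, against 1.44% of genes. CCAAT was absent from the windows of Acat2, Scap, Mbtps1 and Mbtps2. These are letter matches in 1 fixed window, chosen with the expression results known, and no test was made of them.

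**Figure D2:**
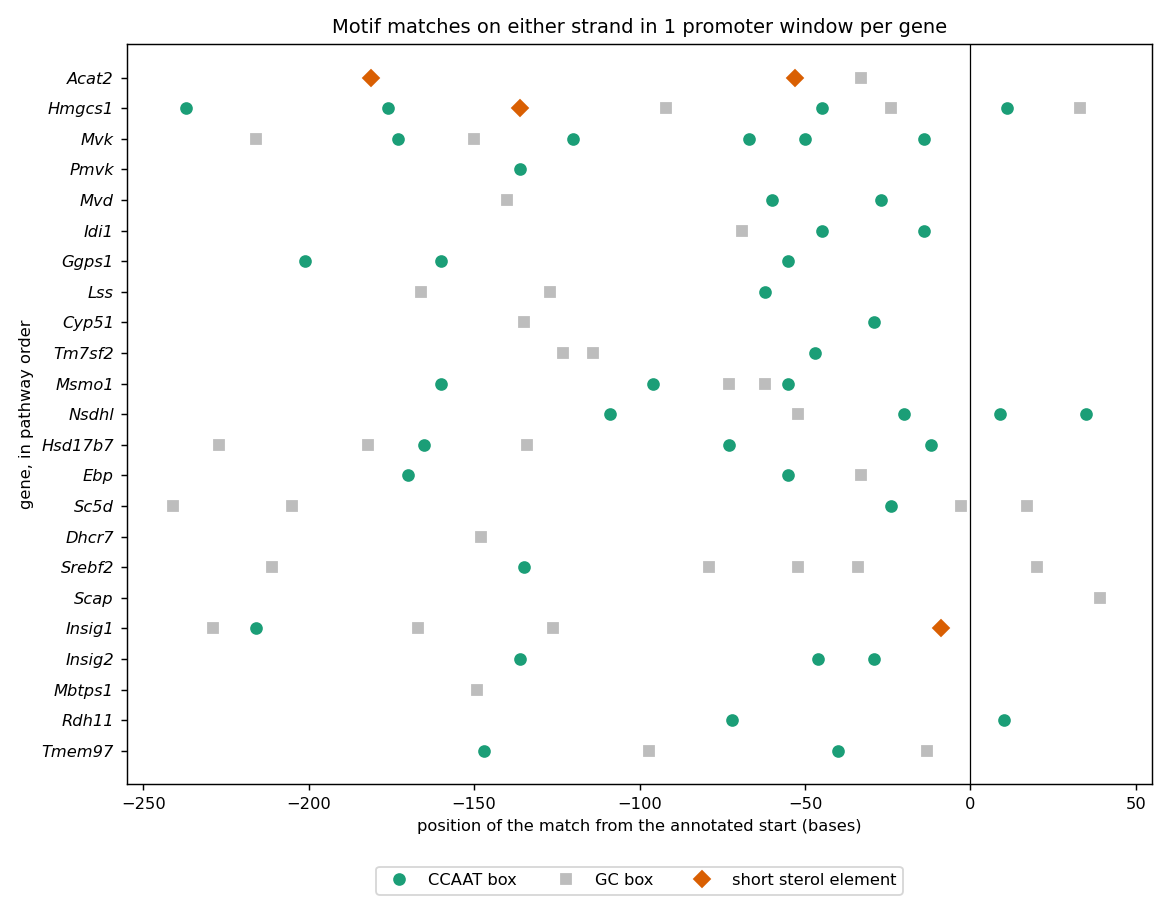
Points mark where the CCAAT box, the GC box and the short sterol element matched on either strand, in bases from the annotated start (vertical line), in 1 window per gene: the first listed window with a match. Most CCAAT boxes lie before the start, and the short sterol element appears for Acat2, Hmgcs1 and Insig1.

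The enzymes from acetyl-CoA to isopentenyl diphosphate all fell with 6 d of Dex. Mvd, the decarboxylase that ends the mevalonate section, read 9.81, 9.93 and 9.79 on the control arrays, 9.70, 9.55 and 9.28 after 2 h, 9.29, 9.17 and 9.20 after 24 h and 7.73, 7.71 and 7.55 after 6 d of Dex. Under TNF, Mvd read 9.61, 9.51 and 9.25 at 2 h, 9.53, 9.45 and 9.51 at 24 h and 9.28, 9.15 and 9.55 at 6 d. The Dex 6 d arrays lay more than a log2 unit below every other array, and the change was -2.18 ± 0.15 (adjusted p = 2.2e-08). Hmgcs1, the cytosolic synthase that makes HMG-CoA, changed by -1.79 ± 0.17, and Idi1, the isomerase that makes dimethylallyl diphosphate, by -1.76 ± 0.26. The kinases Mvk and Pmvk, which phosphorylate mevalonate in turn, fell by 1.45 ± 0.32 and 1.33 ± 0.20. Adjusted p-values of these 4 ran from 1.09e-06 (Hmgcs1) to 0.00622 (Mvk), and in each gene the Dex 6 d and control arrays did not overlap. All 5 Hmgcs1 probe sets were lower at 6 d of Dex, by between -1.23 and -2.29.

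At the branch point, 1 of the 2 prenyl synthases fell at 6 d of Dex. Fdps, which makes farnesyl diphosphate for both squalene and protein prenylation, read 13.56, 13.53 and 13.40 on the control arrays, 13.48, 13.40 and 13.19 after 2 h, 13.17, 13.14 and 13.12 after 24 h and 11.78, 11.44 and 11.53 after 6 d of Dex. Under TNF, Fdps read 13.47, 13.08 and 13.11 at 2 h, 12.81, 12.78 and 12.45 at 24 h and 12.69, 11.02 and 12.80 at 6 d. At 24 h the arrays of both treatments lay below all control arrays, and at 6 d the Dex arrays lay far below those of 24 h while TNF replicates 1 and 3 did not. Its change at 6 d of Dex was -1.92 ± 0.30 (adjusted p = 0.00031). Ggps1, which makes geranylgeranyl diphosphate for protein prenylation and lies off the sterol route, was higher by 0.63 ± 0.25, which did not pass the test (adjusted p = 0.156). It passed without TNF 6 d replicate 2 (adjusted p = 0.0447). The other 3 Ggps1 probe sets changed by 0.28, -0.16 and 0.30, so 1 of the 4 had the other sign. The highest Ggps1 levels were 8.48 on TNF 2 h replicate 2, 8.41 on Dex 6 d replicate 2 and 8.14 on the outlying array. Those 3 arrays also had the highest 3' minus 5' differences (0.736, 0.777 and 2.00), and the part of that in the result was not tested.

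The 3 enzymes from farnesyl diphosphate to lanosterol all fell with 6 d of Dex. Sqle, the epoxidase of squalene and a rate-limiting step, read 11.99, 11.98 and 12.37 on the control arrays, 11.77, 11.82 and 11.55 after 2 h, 11.27, 11.22 and 11.17 after 24 h and 9.97, 10.43 and 9.58 after 6 d of Dex. Under TNF, Sqle read 11.70, 12.04 and 11.51 at 2 h, 11.35, 11.37 and 11.00 at 24 h and 11.31, 9.94 and 11.34 at 6 d. The level stepped down at each later time of Dex, with no overlap between 2 h, 24 h and 6 d, whereas the TNF arrays at 24 h and replicates 1 and 3 at 6 d lay within 1 range. The change at 6 d of Dex was -2.12 ± 0.29, 4.35-fold lower (adjusted p = 7.09e-05). Fdft1, squalene synthase, read 12.25, 12.27 and 11.95 on the control arrays, 11.99, 12.02 and 11.84 after 2 h, 11.55, 11.52 and 11.35 after 24 h and 10.19, 10.45 and 10.02 after 6 d of Dex. Under TNF, Fdft1 read 12.27, 12.45 and 11.93 at 2 h, 11.80, 11.70 and 11.86 at 24 h and 11.72, 11.49 and 11.61 at 6 d. Its Dex 6 d arrays were below every other array, by a group change of -1.93 ± 0.15 (adjusted p = 9.35e-08), and its second bright probe set changed by -2.38. Lss, which folds oxidosqualene into lanosterol, fell by 1.44 ± 0.29 (adjusted p = 0.00276).

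Among the enzymes after lanosterol, Dhcr7, the reductase that makes cholesterol itself, fell by 1.83 ± 0.25 with 6 d of Dex, and Nsdhl, the sterol dehydrogenase, by 1.78 ± 0.29. Msmo1, the sterol methyl oxidase, fell by 1.60 ± 0.42, and Cyp51, the lanosterol demethylase, by 1.39 ± 0.25. Adjusted p-values were 7.76e-05 (Dhcr7), 0.000359 (Nsdhl), 0.0208 (Msmo1) and 0.00103 (Cyp51). The isomerase Ebp (-0.70 ± 0.31) and the desaturase Sc5d (-1.10 ± 0.40) did not pass the test, with adjusted p-values of 0.225 and 0.122, although their Dex 6 d arrays lay below all control arrays. Both passed without TNF 6 d replicate 2 (5.57e-05 and 3.76e-05). Ebp was thus the enzyme of the sterol route with the smallest change. Stard4, a carrier that moves cholesterol between membranes, fell by 1.86 ± 0.27, and Rdh11, a retinol dehydrogenase that also answers to sterol, by 1.49 ± 0.44. Tmem97, a membrane protein that binds sterol, changed by -0.57 ± 0.37 (adjusted p = 0.518, and 0.0165 without the outlying array). Of the 18 calls, 2 rested on the arrays used: Rdh11 lost its call whichever of the 6 arrays of the 2 groups was left out (adjusted p 0.1 to 0.139), and Msmo1 lost it for any of them but Dex 6 d replicate 2 (0.0552 to 0.0913).

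**Figure D3:**
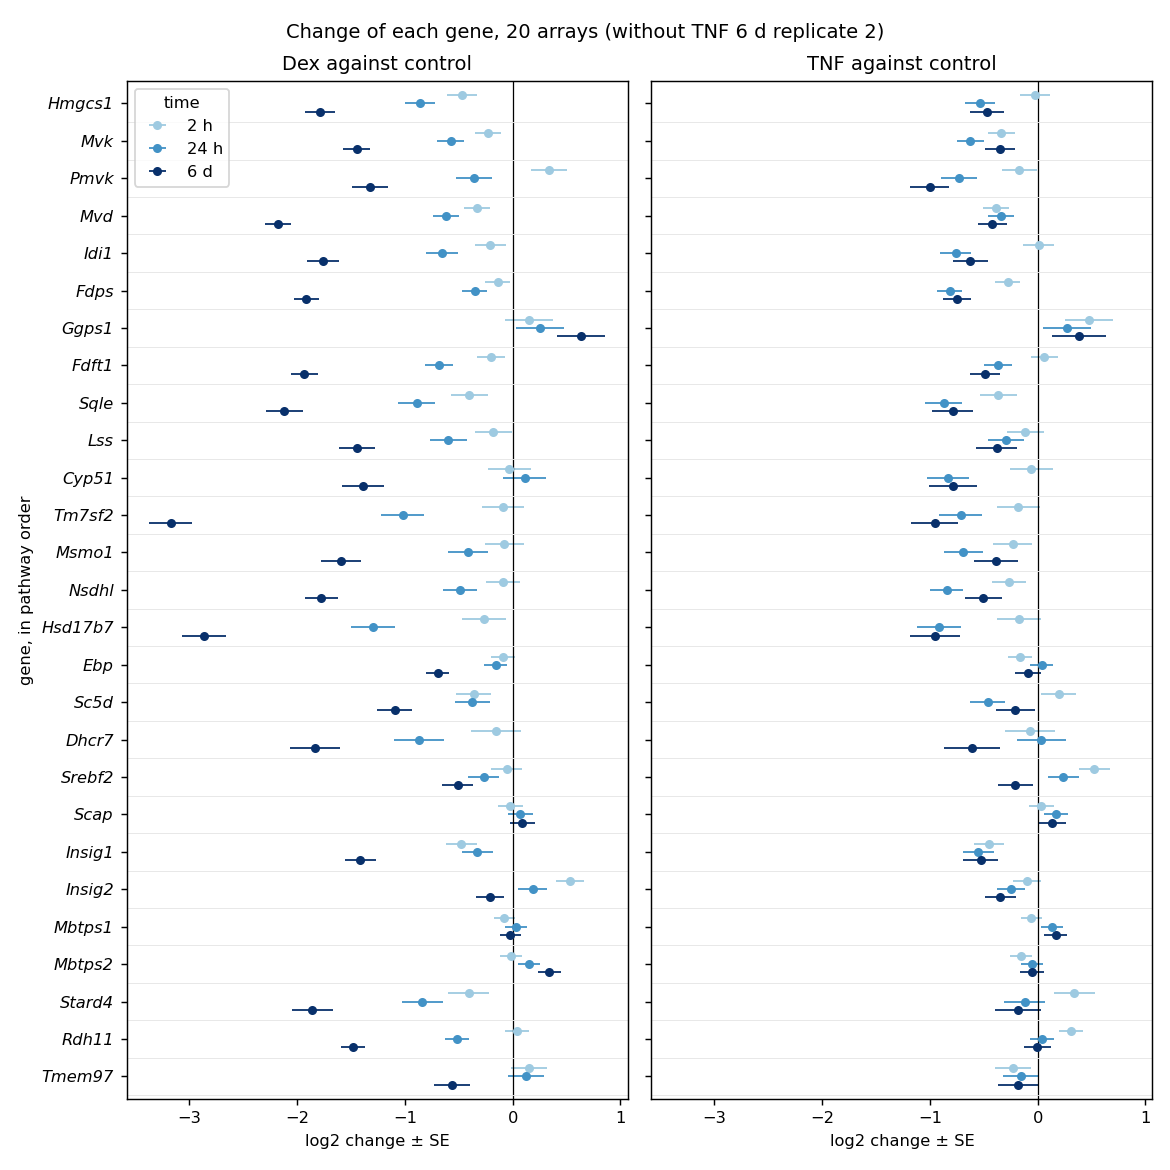
Points give the log2 change of each gene against control with its SE, for Dex (left) and TNF (right) at 2 h, 24 h and 6 d, from the 20 arrays without TNF 6 d replicate 2. With Dex the 6 d points lie well left of the 24 h points for most enzymes; with TNF the 24 h and 6 d points lie close together for most genes, Dhcr7 and Srebf2 being exceptions.

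Of the genes for SREBP2 and its regulators, Insig1 alone passed the test at 6 d of Dex on 21 arrays. Srebf2, which encodes SREBP2, read 8.55, 8.58 and 8.41 on the control arrays, 8.65, 8.37 and 8.36 after 2 h, 8.33, 8.33 and 8.07 after 24 h and 8.00, 8.28 and 7.74 after 6 d of Dex. Under TNF, Srebf2 read 9.09, 9.24 and 8.79 at 2 h, 8.65, 8.75 and 8.86 at 24 h and 8.41, 7.07 and 8.20 at 6 d. Its Dex 6 d arrays lay below the controls and its TNF 2 h arrays above them. Neither change passed the test on 21 arrays (-0.51 ± 0.26, adjusted p = 0.322; 0.53 ± 0.26, adjusted p = 0.512), and both passed without TNF 6 d replicate 2 (adjusted p = 0.0129 and 0.0193). Scap, the escort of SREBP2, read 9.59, 9.61 and 9.64 on the control arrays, 9.53, 9.68 and 9.57 after 2 h, 9.72, 9.64 and 9.70 after 24 h and 9.64, 9.76 and 9.72 after 6 d of Dex. Under TNF, Scap read 9.63, 9.76 and 9.56 at 2 h, 9.71, 9.55 and 10.10 at 24 h and 9.72, 9.18 and 9.78 at 6 d. Its highest array was TNF 24 h replicate 3 and its lowest TNF 6 d replicate 2, and the other 19 arrays lay between 9.53 and 9.78. The change of Scap at 6 d of Dex was 0.09 ± 0.17 (95% interval -0.15 to 0.33 without the outlying array). For the protease genes the differences at 6 d of Dex were -0.02 ± 0.26 (Mbtps1) and 0.34 ± 0.33 (Mbtps2), and Mbtps2 passed only without that array (adjusted p = 0.0193).

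Both INSIG genes encode anchors that hold SCAP in the endoplasmic reticulum. Insig1, itself a target of SREBP, read 12.33, 12.40 and 12.41 on the control arrays, 11.95, 12.02 and 11.74 after 2 h, 12.08, 12.15 and 11.93 after 24 h and 11.07, 11.32 and 10.51 after 6 d of Dex. Under TNF, Insig1 read 11.90, 12.12 and 11.77 at 2 h, 11.87, 11.86 and 11.77 at 24 h and 11.80, 12.21 and 11.90 at 6 d. Every treated array lay below every control array, and the level was lowest with Dex at 6 d, by -1.41 ± 0.17 (adjusted p = 1.95e-05). Insig2, which is not tied to SREBP activity in this way, read 9.80, 9.90 and 10.25 on the control arrays, 10.43, 10.69 and 10.42 after 2 h, 10.12, 10.16 and 10.22 after 24 h and 9.76, 9.93 and 9.62 after 6 d of Dex. Under TNF, Insig2 read 9.78, 10.15 and 9.74 at 2 h, 9.75, 9.81 and 9.65 at 24 h and 9.62, 7.27 and 9.65 at 6 d. Its 3 arrays at 2 h of Dex were above all others. That change, 0.53 ± 0.41 on 21 arrays, had an adjusted p of 1, and 0.0131 without the outlying array, whose Insig2 level of 7.27 lay far below the rest. By 6 d of Dex, Insig2 differed from control by -0.21 ± 0.41 and did not pass with or without that array.

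**Figure D4:**
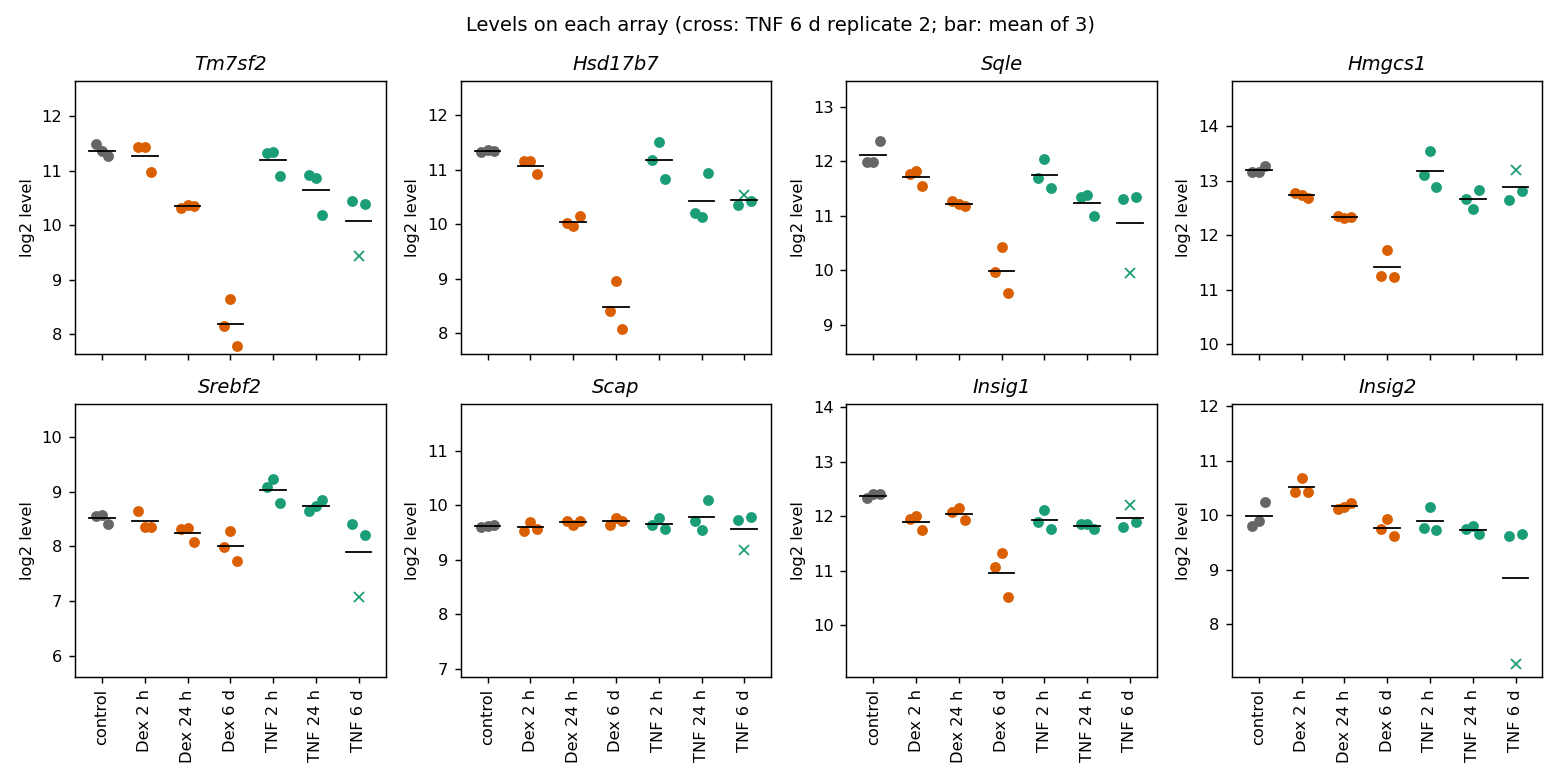
Points give the log2 level of 8 genes on each of the 21 arrays by group (grey control, orange Dex, green TNF), with a bar at the mean of 3 and a cross for TNF 6 d replicate 2; each panel spans the same number of log2 units. The enzymes in the upper row step down with time of Dex, Insig2 is highest at 2 h of Dex, and Scap is level.

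The number of members that fell with Dex was larger at each later time. At 2 h, 0 of 27 members passed the test (limma, 21 arrays), and 3 had an unadjusted p under 0.05. Among all tested genes at this time, 1.66% rose and 0.814% fell, and without TNF 6 d replicate 2 these shares were 4.29% and 2.83%. Without that array 1 member rose (Insig2) and 2 fell: Hmgcs1 (-0.47 ± 0.14, adjusted p = 0.0436) and Insig1 (-0.48 ± 0.14, adjusted p = 0.0485). At 24 h, 5 members fell: Hsd17b7 (-1.30 ± 0.23), Tm7sf2 (-1.02 ± 0.27), Hmgcs1 (-0.86 ± 0.17), Fdft1 (-0.68 ± 0.15) and Mvd (-0.62 ± 0.15). The shares for all genes at 24 h were as follows: 2.06% rose and 2.11% fell, and without TNF 6 d replicate 2 these shares were 6.39% and 6.79%. The count of members was then 13 lower and 0 higher. Leaving out any single array of the 2 groups left 2 or 3 of the 5 calls: Mvd (adjusted p 0.0611 to 0.125) and Tm7sf2 (0.0840 to 0.152) lost theirs without any 1 of the 6 arrays, and Fdft1 without control replicate 1 or 2 or Dex 24 h replicate 3 (0.0724 to 0.0788). Cyp51 did not pass the test at 24 h in either fit, at 0.11 ± 0.25 against control.

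Between 24 h and 6 d of Dex, 10 members fell further and 0 rose, with a median change of -0.97. Few genes moved in this interval: of all tested, 0.247% rose and 0.436% fell, and without TNF 6 d replicate 2 these shares were 1.12% and 3.38%. Without that array 21 members fell. Tm7sf2 (-2.15 ± 0.27), Hsd17b7 (-1.57 ± 0.23), Mvd (-1.56 ± 0.15), Fdps (-1.56 ± 0.30) and Cyp51 (-1.50 ± 0.25) had the largest of these changes. Fdps and Nsdhl lost the call whichever array of the 2 groups was left out (adjusted p 0.0533 to 0.102 and 0.159 to 0.192), and Hmgcs1 and Pmvk lost it for any but Dex 6 d replicate 2 (0.0584 to 0.0954 and 0.102 to 0.183). From 2 h to 24 h, Hsd17b7 alone fell (-1.03 ± 0.23, adjusted p = 0.0131), and this call was lost without replicate 1 or 2 of either group (0.0601 to 0.0692). Of all genes between these times, 1.57% rose and 2.05% fell, and without TNF 6 d replicate 2 these shares were 6.24% and 7.26%. Without the outlying array 7 members fell from 2 h to 24 h, among them Tm7sf2 (-0.93 ± 0.20) and Pmvk (-0.70 ± 0.17).

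With 24 h of TNF, 3 of 27 members fell: Hsd17b7 (-0.92 ± 0.23, adjusted p = 0.0142), Cyp51 (-0.83 ± 0.25, adjusted p = 0.045) and Pmvk (-0.73 ± 0.20, adjusted p = 0.0249). Among all genes, 5.41% rose and 3.27% fell, and without TNF 6 d replicate 2 these shares were 13.2% and 12.4%. The members were then 15 lower and 0 higher, Fdps (-0.82 ± 0.12), Sqle (-0.87 ± 0.17) and Nsdhl (-0.84 ± 0.16) among them. Each of the 3 calls on 21 arrays depended on single arrays: Cyp51 lost it without any 1 of the 6 (adjusted p 0.0616 to 0.211), Pmvk without any but control replicate 3 (0.0527 to 0.132), and Hsd17b7 without control replicate 2 or TNF 24 h replicate 1 or 2 (0.0521 to 0.0778). At 2 h of TNF, 0 members passed the test and 2 had an unadjusted p under 0.05. The shares of all genes at 2 h of TNF were these: 2.95% rose and 0.872% fell, and without TNF 6 d replicate 2 these shares were 6.59% and 4.08%. Then Srebf2 rose and Mvd (-0.38 ± 0.12) and Insig1 (-0.45 ± 0.14) fell.

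At 6 d of TNF, 10 members fell and 0 rose on 21 arrays, with a median change of -0.85 against -0.23 for all genes. Of the genes tested at 6 d of TNF, 4.52% rose and 10.7% fell, and without TNF 6 d replicate 2 these shares were 10.5% and 9.93%. Without that array 12 members fell, and the median was -0.39 against -0.05, so the members' own median moved by more than 1.5 times with 1 array. Sizes moved likewise: Fdps changed by -1.33 ± 0.30 with it and -0.75 ± 0.13 without, Sqle by -1.25 ± 0.29 and -0.79 ± 0.19, Idi1 by -1.05 ± 0.26 and -0.62 ± 0.16, and Nsdhl by -0.98 ± 0.29 and -0.50 ± 0.17. All 10 fell in both fits, with Hsd17b7 at -0.90 and -0.95 and Tm7sf2 at -1.28 and -0.96, and Pmvk changed by -0.89 ± 0.20 with the array. The 2 that joined without it were Insig1 (-0.53 ± 0.16) and Hmgcs1 (-0.47 ± 0.15). A fit of only TNF 6 d and control called 0 members, and leaving out replicate 1 or 3 of TNF 6 d in place of replicate 2 gave 20. Mvd and Nsdhl lost their calls without any 1 control array (adjusted p 0.0681 to 0.113 and 0.0554 to 0.0896), and Fdft1 without control replicate 1 or 2 (0.0863 to 0.0953).

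No further fall was detected between 24 h and 6 d of TNF: 0 of 27 members passed with 21 arrays (limma, 6 with an unadjusted p under 0.05), and 0 passed without TNF 6 d replicate 2 (2 with an unadjusted p under 0.05). Over all genes 1.21% rose and 4.78% fell, and without TNF 6 d replicate 2 these shares were 4.10% and 5.09%. The median change of the members was -0.03 without the array. Leaving out replicate 1 or 3 of TNF 6 d instead, which leaves the outlying array with 1 other, gave 5 and 8 lower members. From 2 h to 24 h of TNF, 0 members passed on 21 arrays (6 with an unadjusted p under 0.05) and 10 fell without the outlying array, by most in Cyp51 (-0.78 ± 0.20) and Idi1 (-0.77 ± 0.15). In that interval, of all genes, 3.00% rose and 2.69% fell, and without TNF 6 d replicate 2 these shares were 11.9% and 10.1%.

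Dex and TNF were then compared directly at equal times. At 6 d, 10 members were lower and 1 higher with Dex than with TNF. Of all genes at 6 d, 15.9% were higher with Dex and 7.81% lower, and without TNF 6 d replicate 2 these shares were 14.4% and 15.8%. Without that array 19 members were lower and 1 higher. Hsd17b7 differed by -1.96 ± 0.23 (adjusted p = 6.87e-06), Tm7sf2 by -1.89 ± 0.27 (7.12e-05), Mvd by -1.66 ± 0.15 (4.71e-07) and Hmgcs1 by -1.47 ± 0.17 (6.87e-06). Fdft1, Stard4, Dhcr7, Insig1, Sqle and Nsdhl were the other lower genes, by between -0.80 (Nsdhl) and -1.39 (Fdft1). Without TNF 6 d replicate 2, Sqle differed by -1.33 ± 0.19 in place of -0.87 ± 0.29, and Nsdhl by -1.27 ± 0.17 in place of -0.80 ± 0.29. Of these, Sqle lost the call without replicate 1 or 3 of either group (adjusted p 0.0917 to 0.157), and Nsdhl without any 1 array but TNF 6 d replicate 2 (0.0893 to 0.139). In the fit of only these 2 groups, 4 members passed. Rdh11 was called lower with Dex only without TNF 6 d replicate 2 (-1.48 ± 0.12, adjusted p = 1.24e-08), against -0.59 ± 0.44 with it. Its level there was 6.79, against 9.46 and 9.48 on the other arrays of that group.

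The 1 member that was higher with Dex than with TNF at 6 d was Mbtps2, the site-2 protease gene. It read 9.98, 10.02 and 10.12 on the control arrays, 10.05, 9.96 and 10.06 after 2 h, 10.24, 10.21 and 10.11 after 24 h and 10.26, 10.57 and 10.31 after 6 d of Dex. Under TNF, Mbtps2 read 9.74, 10.03 and 9.88 at 2 h, 9.88, 10.01 and 10.07 at 24 h and 10.00, 8.07 and 9.97 at 6 d. The Dex 6 d arrays were the highest of all 21, and the outlying array the lowest. The difference was 1.03 ± 0.33 with that array and 0.39 ± 0.11 without it, and it passed both ways (adjusted p = 0.0313 and 0.0127). Leaving out any 1 of the Dex 6 d arrays ended the call (adjusted p 0.0623 to 0.102). No difference at 6 d was detected for Scap (95% interval of Dex minus TNF -0.31 to 0.23 without the array) and Mbtps1 (-0.42 to 0.04).

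**Figure D5:**
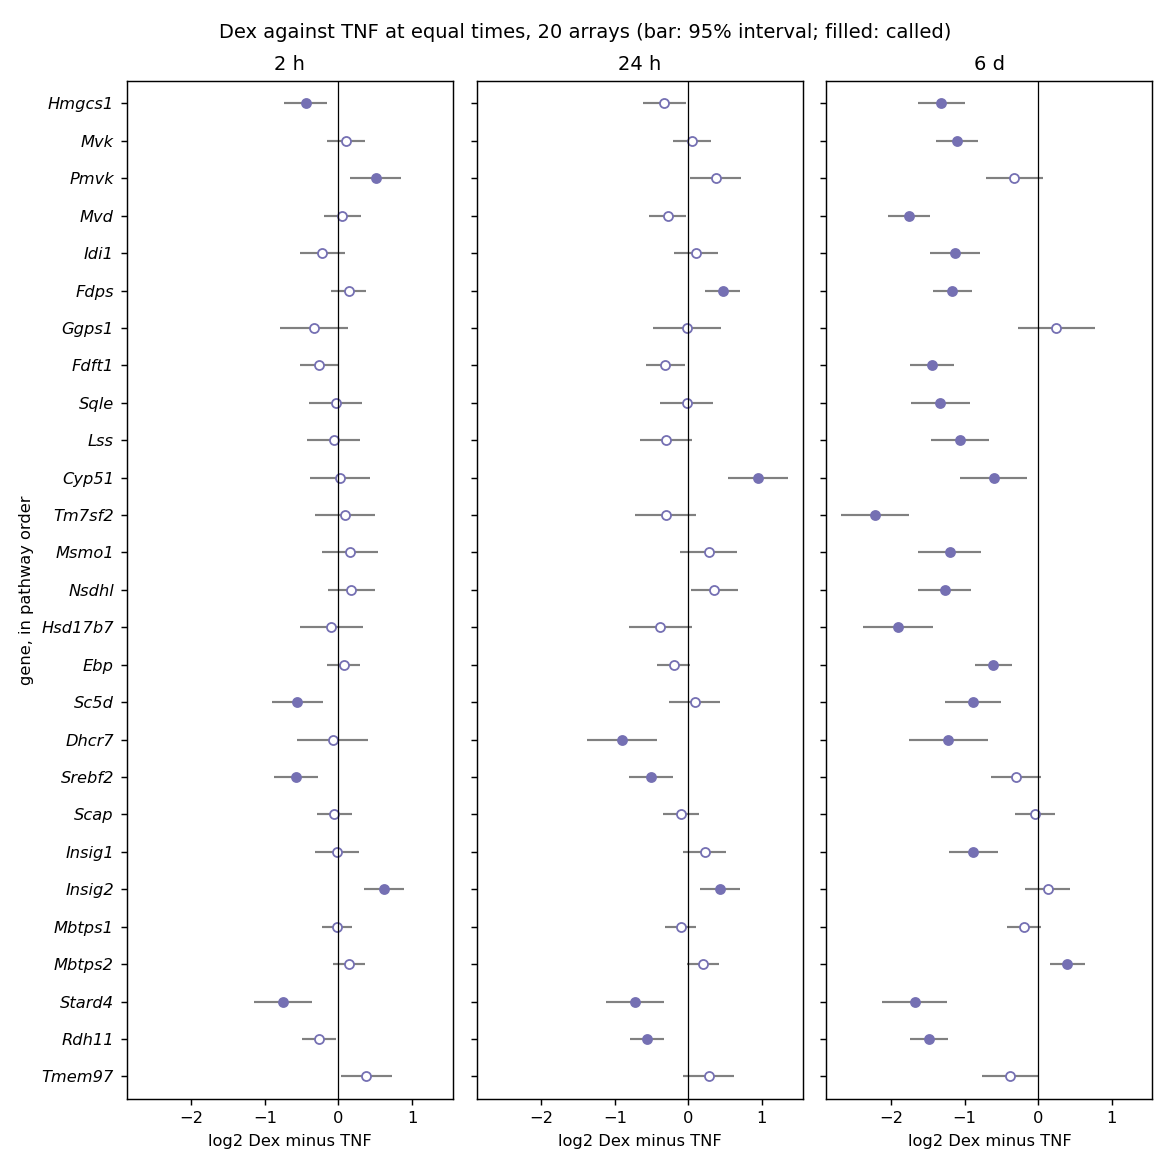
Points give the log2 difference Dex minus TNF for each gene at 2 h, 24 h and 6 d with its 95% interval, from the 20 arrays without TNF 6 d replicate 2; filled points passed the test. At 24 h Cyp51 lies to the right and Dhcr7 to the left, and at 6 d 24 of the 27 genes lie to the left, 19 of them filled.

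At 24 h, 1 of 27 members was higher with Dex than with TNF (Cyp51) and 1 was lower (Dhcr7). Of all genes, 5.89% were higher and 7.56% lower, so these 2 calls are no more than such shares would hold. Cyp51 read 10.16, 10.27 and 10.26 on the control arrays, 10.23, 10.48 and 9.90 after 2 h, 10.34, 10.38 and 10.31 after 24 h and 8.85, 9.22 and 8.45 after 6 d of Dex. Under TNF, Cyp51 read 10.22, 10.54 and 9.76 at 2 h, 9.60, 9.51 and 9.09 at 24 h and 9.52, 8.69 and 9.38 at 6 d. At 24 h every Dex array was just above the controls and every TNF array below them, a difference of 0.94 ± 0.25 (adjusted p = 0.0149). This was read from the brightest Cyp51 probe set, with a mean of 9.77. Changes of its dimmer probe sets, with means of 7.94 and 6.09, are not given here. Dhcr7 read 10.34, 10.51 and 10.04 on the control arrays, 10.45, 10.18 and 9.80 after 2 h, 9.44, 9.46 and 9.39 after 24 h and 8.44, 8.72 and 8.23 after 6 d of Dex. Under TNF, Dhcr7 read 10.13, 10.61 and 9.93 at 2 h, 10.09, 9.90 and 11.00 at 24 h and 9.67, 9.74 and 9.71 at 6 d. The direction was the opposite one, lower with Dex than with TNF at 24 h by 0.90 ± 0.25 (adjusted p = 0.0219). TNF 24 h replicate 3 held both the lowest Cyp51 and the highest Dhcr7 of its group, and its 3' minus 5' difference was 0.683, against 0.110 and 0.163 on the other 2. Without it Cyp51 differed by 0.79 (adjusted p = 0.0847) and Dhcr7 by -0.57 (0.146). Dhcr7 also lost its call without any 1 Dex 24 h array (0.0605 to 0.0692), and Cyp51 without Dex 24 h replicate 2 (0.0539).

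Over the whole set, 1 member was higher and 1 lower with Dex than with TNF at 24 h. Of all genes at 24 h, 5.89% were higher with Dex and 7.56% lower, and without TNF 6 d replicate 2 these shares were 16.9% and 16.1%. Without that array 3 members were higher, with Fdps (0.47 ± 0.12) and Insig2 (0.43 ± 0.13) joining Cyp51, and 4 were lower, with Stard4 (-0.72 ± 0.19), Rdh11 (-0.56 ± 0.11) and Srebf2 (-0.51 ± 0.14) joining Dhcr7. The members' counts lay near or below these shares of all genes. At 2 h, 0 members differed on 21 arrays (4 with an unadjusted p under 0.05). At that time, of all genes, 2.36% were higher with Dex and 3.61% lower, and without TNF 6 d replicate 2 these shares were 7.13% and 7.63%. Insig2 (0.63 ± 0.13) and Pmvk (0.51 ± 0.17) were then higher with Dex, and Stard4 (-0.75 ± 0.19), Srebf2 (-0.58 ± 0.14), Sc5d (-0.56 ± 0.16) and Hmgcs1 (-0.45 ± 0.14) lower.

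Whether the gap between the treatments grew from 24 h to 6 d was tested in the same model. Dex minus TNF was more negative at 6 d than at 24 h for 6 of 27 members (Hmgcs1, Mvd, Fdft1, Tm7sf2, Hsd17b7 and Insig1) and more positive for 0, where 0.716% and 1.47% of all genes were. Without TNF 6 d replicate 2 it was more negative for 16 members and more positive for 0, against 4.13% and 3.08% of all genes. In Tm7sf2 the gap changed by -1.58 ± 0.38 (adjusted p = 0.0334) and in Mvd by -1.39 ± 0.22 (adjusted p = 0.00157).

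At 6 d of Dex, of 14 tested genes of fatty acid and lipid synthesis that SREBP proteins also serve, 6 fell and 1 rose. Without TNF 6 d replicate 2 the counts were 10 and 2, and the median change was -0.86. Of all genes, 5.08% fell and 3.22% rose (13.5% and 10.4% without that array). Fads2, a fatty acid desaturase, changed by -2.08 ± 0.19 and Elovl6, an elongase, by -1.93 ± 0.50. Lpin1, a phosphatidate phosphatase, was the 1 that rose (0.72 ± 0.16). With TNF the same list had 6 lower and 0 higher at 24 h and 8 lower and 0 higher at 6 d (9 lower and 1 higher at both times without the outlying array). Me1, malic enzyme, led (-1.32 ± 0.29 and -1.76 ± 0.29), with Fasn, fatty acid synthase, at -1.21 ± 0.16 at 24 h. Of all genes, 3.27% fell and 5.41% rose at 24 h (12.4% and 13.2% without the outlying array). At 6 d of TNF these shares were 10.7% and 4.52% (9.93% and 10.5%). Lpin1 also rose at 2 h (0.76 ± 0.16) and 24 h of Dex (1.07 ± 0.16), where Fads2 fell (-0.82 ± 0.19). It fell with TNF, by 0.79 ± 0.16 at 2 h, 1.04 ± 0.16 at 24 h and 1.02 ± 0.16 at 6 d. Srebf1, the sister gene of Srebf2, was 0.61 ± 0.29 at 6 d of Dex (adjusted p = 0.295), and passed as higher without the outlying array (0.000833).

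Of 12 tested genes for prenyl transfer, ubiquinone and dolichol, 1 rose and 0 fell at 6 d of Dex (2 and 0 without TNF 6 d replicate 2), beside the 3.22% and 5.08% of all genes on 21 arrays: Fntb, a farnesyltransferase subunit (0.62 ± 0.15), which was also higher at 24 h (0.96 ± 0.15). Fnta, the other subunit, fell at 24 h of TNF (-0.49 ± 0.13), the 1 call of that list there (1 higher and 1 lower without the outlying array). At 6 d of TNF 2 of these fell, Pdss2 (-0.91 ± 0.23), which makes the ubiquinone tail, and Rabggta (-0.54 ± 0.16), a subunit of the Rab prenyltransferase, where 10.7% of all genes fell. Without the outlying array the list had 1 higher and 1 lower, and Rabggta, at -0.34 ± 0.13, did not pass. Of 9 tested paralogs and electron donors, 2 fell and 0 rose at 6 d of Dex (3 and 2 without that array). These 2 were the cytochrome b5 gene Cyb5b (-0.86 ± 0.20) and the reductase gene Cyb5r3 (-0.63 ± 0.13). The other cytochrome b5 gene of the list, Cyb5a, moved the other way. It averaged 13.77 at 6 d of Dex and 13.35 in the controls, and did not pass on 21 arrays. Erg28 of this list did not pass on 21 arrays, although it averaged 9.18 at 6 d of Dex and 10.53 in the controls. Its level on the outlying array was 7.05. With TNF at 6 d, 3 of that list fell and 0 rose (2 and 1 without the array), with Acat1, the mitochondrial thiolase, at -1.07 ± 0.27 and Cyb5b at -0.72 ± 0.20. Both were smaller without the array (-0.57 ± 0.12 and -0.41 ± 0.13) and passed in both fits. Lbr, which catalyses the same reduction as Tm7sf2, changed by 0.03 ± 0.37 at 6 d of Dex (adjusted p = 0.988). Of 11 tested genes of sterol-regulated degradation and SREBP cofactors, Erlin1, whose protein binds sterol in the endoplasmic reticulum, was the 1 that passed at 2 h of Dex in either fit, and rose (1.30 ± 0.31, adjusted p = 0.0286). Its partner Erlin2 was the 1 that passed at 6 d of Dex and fell (-0.58 ± 0.15), and Erlin1 (0.96 ± 0.12) and Marchf6 (0.39 ± 0.09) rose there without the outlying array. At 6 d of TNF, Rnf145 (-0.99 ± 0.26) and Marchf6 (-0.63 ± 0.18), both ubiquitin ligases, fell, and without the outlying array they were at -0.56 ± 0.15 and -0.34 ± 0.10 and still passed.

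Markers of cell state moved beside these changes. At 6 d of Dex the mean of 7 measured preadipocyte and fibroblast markers was 8.78 to 9.07, against 9.84 to 10.10 in the controls. Of the 6 tested, 4 fell (5 without the outlying array), Col1a1 (-2.44 ± 0.30) and Pdgfrb (-1.65 ± 0.17) among them. The share of all genes that fell in this comparison was 5.08% (13.5% without the outlying array). Pdgfra did not fall: it averaged 11.71 at 6 d of Dex and 11.33 in the controls. With 6 d of TNF the mean of the 7 markers was 10.25 to 10.55, with 2 of 6 tested markers higher, as at 24 h of TNF. On 21 arrays 4.52% of all genes rose at 6 d of TNF and 5.41% at 24 h. Not every marker was higher with TNF: Dlk1, for example, averaged 9.66 at 24 h of TNF and 10.29 in the controls. Between the treatments at 6 d, 5 of the 6 were lower with Dex than with TNF, and 6 of 6 without the array. Among all genes 7.81% were lower with Dex, and 15.8% without the array. The adipocyte mean was 13.24 to 13.41 at 6 d of Dex, with 1 of 6 markers lower (2 without the outlying array). On the arrays of TNF at 6 d it was 12.99 and 12.95 on replicates 1 and 3 and 12.10 on the outlying array, with 3 of 6 markers lower in both fits. At 6 d of TNF 10.7% of all genes fell, and 9.93% without the outlying array. The macrophage mean was 5.63 to 5.83 at 24 h of TNF, against 5.01 to 5.15 in the controls. Its markers did not move together: Cd14 averaged 8.37 there and 6.60 in the controls, and Cd68 6.78 and 5.21. Csf1r (6.96 and 6.45) and Itgam (4.13 and 3.94) were higher by less. Adgre1 (4.50 and 4.64) and Ptprc (3.64 and 3.72) were not higher. The part of these shifts in the results for the pathway was not tested.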

How the data were processed

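Samples were 21 Affymetrix mouse arrays of 3T3-L1 cells in 7 groups of 3, named from the labels. The deposited values were normalised by the authors with RMA, per the submitters' processing notes, and are log2 intensity; the version, aligner and build are not given in the sources used here. The log2 scale was read from their range, up to 15.06. Of 45101 probe sets, 34958 listed 1 gene, 932 several and 9211 none. Symbols were updated for 34754 through Entrez identifiers.

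The filter kept genes above the median of all values (5.34) on 3 or more arrays and left out 6038 of 18194. limma (version 3.58.1, R 4.3.3) fitted a mean per group to all arrays, with trended empirical Bayes moderation (14 residual and 3.96 prior degrees of freedom, and 13 and 6.56 without TNF 6 d replicate 2). p-values are two-sided, adjusted by Benjamini and Hochberg in each of 13 comparisons. The growth of the gap between treatments was tested as a contrast of contrasts. An exact permutation of 3 arrays against 3 cannot go below 0.1. The number of arrays limits the precision, and comparisons that share the control arrays are not independent of each other. Where nothing in the labels ties replicates to separate differentiations, p-values measure the spread between these samples.

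The members and gene lists were chosen with earlier results of these data known. All members are named; array values are given for the 6 largest called changes at 6 d of Dex, for members called against the majority of a comparison (or, where the calls were split, for both) and for Srebf2, Scap, Insig1 and Insig2, and other lists name up to 2 called genes per comparison. Markers, treatment checks, Srebf1, Lbr and Erg28 are named beside these, and the order in which some were picked followed their values. Arrays with the same replicate number deviated together (all correlations over 0.1) at 24 h, between Dex and control (0.233 to 0.447) and between Dex and TNF (0.207 to 0.270). No 2 arrays were duplicates. The code was tested on simulated data. Promoter windows came from RefSeq, build GRCm38.p6, matched by symbol for 24 of 28 members; probe sets that list several symbols were left out. Other settings tried were no filter, the mean of probe sets, median centring, quantile normalisation, fits of 2 groups, a replicate block, array weights, no trend and leaving out arrays.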

Additional observations from a re-analysis of the deposited data

Results flagged for a closer look

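For 6 members the difference between Dex and TNF was not the same at 6 d as at 24 h by a test of that change in the model of all 7 groups. The change of Dex minus TNF from 24 h to 6 d, on the log2 scale, was -1.58 for Tm7sf2 (-1.91 without TNF 6 d replicate 2), -1.58 for Hsd17b7 (-1.53 without TNF 6 d replicate 2) and -1.39 for Mvd (-1.48 without TNF 6 d replicate 2). It was -1.22 for Insig1 (-1.10 without TNF 6 d replicate 2), -1.15 for Hmgcs1 (-0.99 without TNF 6 d replicate 2) and -1.07 for Fdft1 (-1.13 without TNF 6 d replicate 2). The adjusted p-values ran from 0.00157 (Mvd) to 0.0334 (Tm7sf2), and all 6 also passed without that array. Tm7sf2 and Hsd17b7 catalyse reductions after lanosterol, Hmgcs1 and Mvd belong to the mevalonate section, Fdft1 commits farnesyl diphosphate to sterols, and Insig1 is the feedback gene. The 3' minus 5' difference of TNF 24 h replicate 3 (0.683) and Dex 6 d replicate 2 (0.777) was higher than that of the other arrays of their groups, and its part in these values was not tested.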

How the results depend on the processing

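Without TNF 6 d replicate 2 the count of members that passed the test was 3 for Dex 2 h, 13 for Dex 24 h, 3 for TNF 2 h and 15 for TNF 24 h against control, 6, 7 and 20 for Dex against TNF at 2 h, 24 h and 6 d, and 7, 21 and 10 for Dex 24 h against 2 h, Dex 6 d against 24 h and TNF 24 h against 2 h. Array weights, which stopped before they converged, gave 7, 23, 18, 18 and 21 for Dex 2 h, Dex 24 h, TNF 2 h, TNF 24 h and TNF 6 d against control, 14, 18 and 24 for Dex against TNF, and 18, 23, 16 and 5 for the 4 intervals in time. Under these weights 7 values changed sign: Fdft1 at TNF 2 h (-0.26), Dhcr7 at TNF 24 h (-0.35), Mbtps1 at TNF 6 d (0.19), Sc5d in Dex against TNF at 24 h (-0.27), and Srebf2 (-0.32), Mbtps1 (-0.19) and Tmem97 (-0.30) at 6 d. Fits of only the 2 groups gave 3, 17, 1, 11 and 0 for the same 5 comparisons with control, 4, 10 and 4 for Dex against TNF, and 14, 21 and 2 for Dex 24 h against 2 h, Dex 6 d against 24 h and TNF 24 h against 2 h. Quantile normalisation gave 8 for Dex 24 h and 8 for TNF 24 h against control, 2, 4 and 17 for Dex against TNF, and 2, 2 and 1 for Dex 24 h against 2 h, TNF 24 h against 2 h and TNF 6 d against 24 h. Median centring gave 3 for Dex 24 h. The mean of probe sets gave 1 for Dex against TNF at 2 h and 1 at 24 h, 2 for Dex 24 h against 2 h and 1 for TNF 24 h against 2 h. The cause of these differences was not tested. For the settings other than leaving out TNF 6 d replicate 2, the share of all genes called is not given here. That share can move with the setting: for falls at 24 h of Dex it was 2.11% on 21 arrays and 6.79% without that array. Counts under those other settings, here, above and below, therefore do not set the members apart from other genes.

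For each comparison, 1 array in turn was left out of the 2 groups compared, and arrays of the other groups were kept. Against control this gave 0 to 0 for Dex 2 h and TNF 2 h, 2 to 3 for Dex 24 h and 16 to 17 for Dex 6 d. The ranges were 0 to 2 for TNF 24 h and 7 to 20 for TNF 6 d. They were 0 to 0, 0 to 2 and 8 to 20 for Dex against TNF at 2 h, 24 h and 6 d. Over time they were 0 to 2 for Dex 24 h against 2 h and 6 to 8 for Dex 6 d against 24 h. For TNF 24 h against 2 h and TNF 6 d against 24 h they were 0 to 2 and 0 to 8. Fits without a trend gave 2 for Dex 24 h against 2 h. With the replicate block the count was 5 for Dex 24 h and 18 for Dex 6 d against control, 2 for Dex 24 h against TNF 24 h and 2 for Dex 24 h against 2 h, and the block ended no call of a member and added those of Insig1 (TNF 24 h), Mvk (TNF 6 d) and Pmvk (Dex 24 h against 2 h). The count at 6 d of Dex against control, 18 on 21 arrays, was 16 to 24 over all the settings tried. Every member's mean lay above 5.34 in each group.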
